A study of Homo sapiens with 4 samples.

Results

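The interferon response genes ISG15, IFI6, IFI27, IFI35, IFITM1, IFITM2, IFITM3, IRF9 and BST2 were followed in human embryonic stem cells after gamma irradiation and before it. They were chosen by symbol, with earlier results of these data known. Each was named by 1 probe, which makes 9 of the 47217 probes on the array. Of the 9 genes, 8 were detected and tested among 11030 genes, and IFI27 was below the detection limit on every array. The cells were H9, a widely used human embryonic stem cell line, grown in a serum replacement medium with basic fibroblast growth factor. One group was taken 24 h after gamma irradiation (24 h, n = 2 arrays) and the other before it (0 h, n = 2 arrays). No radiation dose is given in the labels, while the series' title calls it low. Nothing in them tells whether replicate arrays came from separate cultures, so p-values here cover just the spread among these arrays, possibly a technical one. No unirradiated sample at 24 h was analysed here, so irradiation and a day in culture cannot be told apart. The whole comparison also rests on a single cell line.

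Interferons are secreted proteins that bind receptors on the cell surface and signal through kinases of the JAK family, JAK1 and TYK2 for type I interferons. Their signal leads to a complex called ISGF3, in which IRF9 is the subunit that reads DNA. ISGF3 binds the interferon-stimulated response element (ISRE) in promoters and switches on interferon-stimulated genes. Interferon gamma acts mainly through another element, the gamma-activated site (GAS). Pluripotent cells are known to respond weakly to interferon and to express some of these genes, the IFITM genes among them, without it. DNA damage is known in other cells to induce interferon-stimulated genes. The comparison of 24 h with 0 h asks which of these transcripts differed a day after irradiation.

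The promoters are shown first, because the ISRE is the element through which interferon acts on such genes. Its letters were not used to choose them. They were listed as interferon response genes, however, so frequent matches are no independent finding. RefSeq windows of 300 bases, 250 before to 50 after the transcription start on GRCh38.p14, were at hand for 8 of the 9 genes, and for IFI27 there were 2 overlapping windows. IFITM2 is named only. Both strands were searched for the ISRE core GAAANNGAAA, for the longer form GAAANNGAAACT that contains it, and for the GAS letters TTCNNNGAA. The core was found in 6 of the 8 genes, the longer form in the same 6 and the GAS letters in 5. Among all 35116 windows the core occurred in 3.57%, the longer form in 0.273% and the GAS letters in 7.66%. The genes without a core match in this window were IFI35 and IRF9. Matching letters describe the sequence and do not show that a factor was bound. ISG15, the gene with the largest change of the 8, is shown whole, as are the neighbouring genes IFITM1 and IFITM3, which both hold 2 core matches, with core matches in capitals.
ISG15, chr1:1013247-1013546, plus strand: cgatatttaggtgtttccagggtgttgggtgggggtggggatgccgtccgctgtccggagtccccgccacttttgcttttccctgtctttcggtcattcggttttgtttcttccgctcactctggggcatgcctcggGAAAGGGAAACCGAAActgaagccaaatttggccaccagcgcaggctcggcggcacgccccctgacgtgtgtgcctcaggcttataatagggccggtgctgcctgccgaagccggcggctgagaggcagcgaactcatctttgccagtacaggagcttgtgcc
IFITM1, chr11:313790-314089, plus strand: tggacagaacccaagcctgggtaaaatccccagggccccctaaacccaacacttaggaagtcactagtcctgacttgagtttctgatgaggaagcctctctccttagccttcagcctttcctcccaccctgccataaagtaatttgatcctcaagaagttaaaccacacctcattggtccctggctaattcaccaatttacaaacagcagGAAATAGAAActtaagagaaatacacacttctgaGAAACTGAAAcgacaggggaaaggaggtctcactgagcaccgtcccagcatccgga
IFITM3, chr11:320811-321110, minus strand: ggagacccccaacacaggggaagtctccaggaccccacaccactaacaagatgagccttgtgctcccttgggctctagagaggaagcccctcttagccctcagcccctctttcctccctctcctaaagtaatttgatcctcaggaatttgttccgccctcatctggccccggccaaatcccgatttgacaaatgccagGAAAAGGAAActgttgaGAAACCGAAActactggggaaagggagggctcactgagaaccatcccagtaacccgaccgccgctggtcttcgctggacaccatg

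In ISG15 the 2 core matches overlap and begin 113 and 107 bases before the start site, and the second is the longer form. In IFITM3 both matches are the longer form and begin 52 and 35 bases before the start. In IFITM1 they begin 40 and 6 bases before the start, and the first of these is the longer form. One match of each of the remaining 3 genes is shown with its flanks, 5′ to 3′ along the gene, to show how close the elements are in letters; the longer form is in capitals, and in IFI27 it is read on the opposite strand.
IFI6, chr1:27672288-27672315, minus strand: agagagggGAAAATGAAACTgcagagtg
BST2, chr19:17405741-17405768, minus strand: ctttctggGAAACTGAAACTgaaaacct
IFI27, chr14:94110618-94110645, plus strand: atgtctgcAGTTTCGGTTTCctggaaaa

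Of the 8 genes tested, ISG15 rose and the other 7 did not pass the test. ISG15 encodes a small ubiquitin-like protein that is attached to other proteins and is also released from cells. Its normalized log2 signal was 10.62 and 10.75 on the 24 h arrays, against 9.62 and 9.67 on the 0 h arrays. Both 24 h arrays lay above both 0 h arrays, with a gap of 0.95 between the groups. The rise was 2.06-fold, a log2 change of 1.04 ± 0.11 (SE of the fit) with an adjusted p of 0.0447 in limma. By this count 1 of 8 genes was called, higher; of all genes tested, 2.28% were called in either direction and 1.35% higher. The smallest adjusted p of any gene was also 0.0447, so the call sits close to the threshold of 0.05. With 1 array left out at a time it was not called, with an adjusted p of 0.0929 to 0.238 and log2 changes of 0.97 to 1.11, and limma then called 0 of all genes (1831 to 3341 at an unadjusted p under 0.05).

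**Figure D1:**
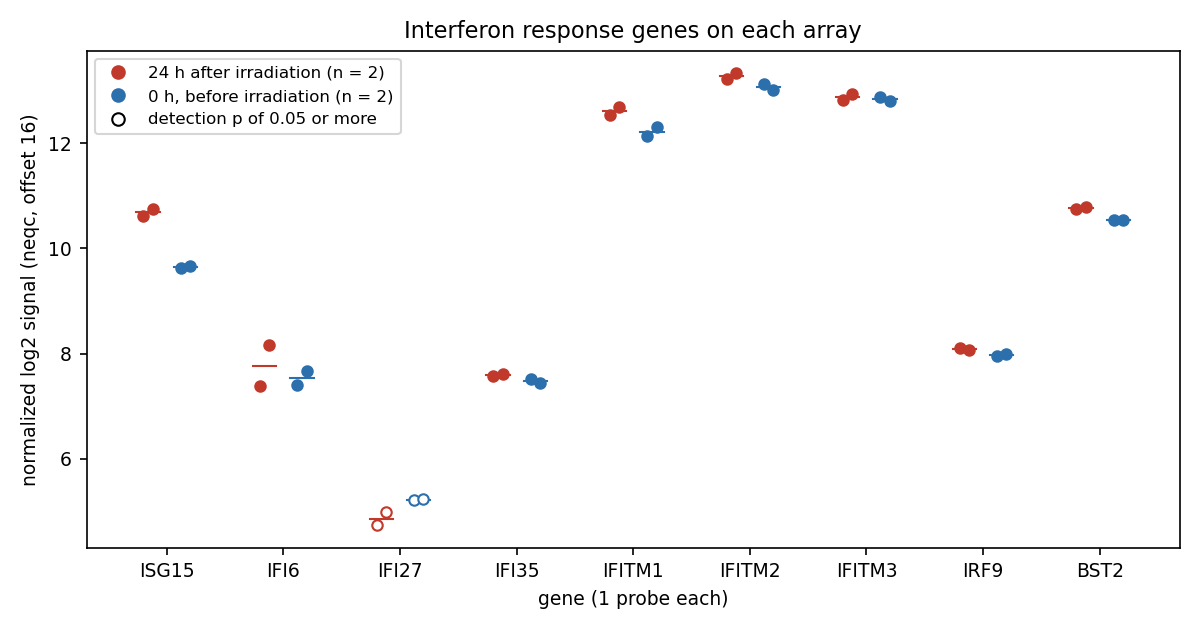
Normalized log2 signal (vertical axis) of each of the 9 genes on each array, 24 h in red at the left and 0 h in blue at the right, with a bar at the mean of the 2 arrays of a group. ISG15 shows the gap of 0.95 between its groups, the 24 h arrays of IFI6 lie apart from each other, and the open points of IFI27 mark signals that were not detected.

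The rise of ISG15 was read after the arrays were brought to a common scale. The 24 h arrays were dimmer as a whole, with raw medians of 143.8 and 134.7, against 158.4 and 175.2 at 0 h. Raw ISG15 signals were 1426.6 and 1226.7 at 24 h, against 1029.5 and 1249.5 at 0 h, and these overlap. For the other 7 genes the raw signals were lower on both 24 h arrays, as they were for 84.7% of all genes tested. Every direction given here is therefore relative to the bulk of the genes on the same array. When each array was scaled by its 75th percentile instead, ISG15 changed by 0.89 and was still called. It was not called without a detection filter (adjusted p = 0.102, limma) or with every probe tested on its own (adjusted p = 0.0546, limma). There the change was the same, more features were tested, and the SE was 0.126 and 0.116, against 0.111. What cost ISG15 the call in these fits was not tested.

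Among the IFITM genes, which encode small membrane proteins that hold back the fusion of viruses with the cell, IFITM1 had the largest change. IFITM1 measured 12.54 and 12.69 at 24 h, against 12.14 and 12.30 at 0 h, so the groups did not overlap. Its change of 0.40 ± 0.12 (1.32-fold) did not pass over all genes (adjusted p = 0.119 in limma, with an unadjusted p of 0.027). It was called under 2 alternatives, with adjusted p of 0.0191 without background correction and 0.00772 with the trend and robust prior, and its adjusted p ran between 0.00772 and 0.451 under the 13 alternatives.

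IFITM2 measured 13.22 and 13.33 at 24 h, against 13.12 and 13.02 at 0 h, a change of 0.21 ± 0.11 with no overlap (adjusted p = 0.285, limma). IFITM3, whose product works in endosomes, measured 12.82 and 12.93 at 24 h, against 12.88 and 12.80 at 0 h. Its groups overlapped, and its change of 0.04 ± 0.11 took the opposite sign without 0 h replicate 2 (-0.002) or without 24 h replicate 2 (-0.02). The 3 genes lie together on chromosome 11 and are close copies of each other, so a probe of one may also take up transcripts of another, and the values per gene are uncertain for that reason. Differences between the 3 changes were not tested.

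BST2, or tetherin, holds budding virus particles on the cell surface. It measured 10.75 and 10.78 at 24 h, against 10.54 and 10.55 at 0 h, and the arrays of a group nearly coincided. Its change of 0.22 ± 0.10 did not pass (adjusted p = 0.224, limma).

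IRF9, the subunit of ISGF3 that reads DNA, measured 8.11 and 8.08 at 24 h, against 7.95 and 7.99 at 0 h. IFI35, a cytoplasmic protein that binds NMI, measured 7.58 and 7.61 at 24 h, against 7.52 and 7.45 at 0 h. Neither gene's groups overlapped, and neither change passed, with 0.13 ± 0.10 for IRF9 and 0.11 ± 0.10 for IFI35 (adjusted p = 0.459 and 0.527, limma).

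IFI6, a membrane protein that hinders the replication of flaviviruses, was the least repeatable of the 8. It measured 7.39 and 8.16 at 24 h, against 7.40 and 7.68 at 0 h, so 24 h replicate 2 stood above the other 3 arrays and the groups overlapped. The change was 0.23 ± 0.29 (adjusted p = 0.631, limma). It was -0.15 without 24 h replicate 2 and 0.62 without 24 h replicate 1, so its direction rests on 1 array. The SD within groups was 0.41 for IFI6, against a median of 0.129 over all genes tested.

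IFI27, a small membrane protein that is strongly induced by type I interferon in many cells, was not well above background. Its raw signals were 124.7 and 127.9 at 24 h, against 158.8 and 176.7 at 0 h. Detection p was 0.594 and 0.239 at 24 h, against 0.106 and 0.118 at 0 h. The gene was not tested and no fold is given, and the single probe may miss the transcript.

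All 8 tested genes had changes above 0, with a median of 0.21, against 49.3% of all genes and a median of -0.005. The signs of IFI6 and IFITM3 turned without 24 h replicate 2. The groups did not overlap, with 24 h higher, for 6 of the 8 genes, against 30.3% of all genes tested. The genes were chosen with earlier results of these data known, so these counts are no independent evidence of a shared rise. ISG15 lay at the 98.9th percentile of all changes, IFITM1 at the 85.4th, and the other 6 between the 54.9th and the 74.2nd. The ranges of the SE do not meet between ISG15 and the next gene, IFITM1, but the difference between their changes was not tested.

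**Figure D2:**
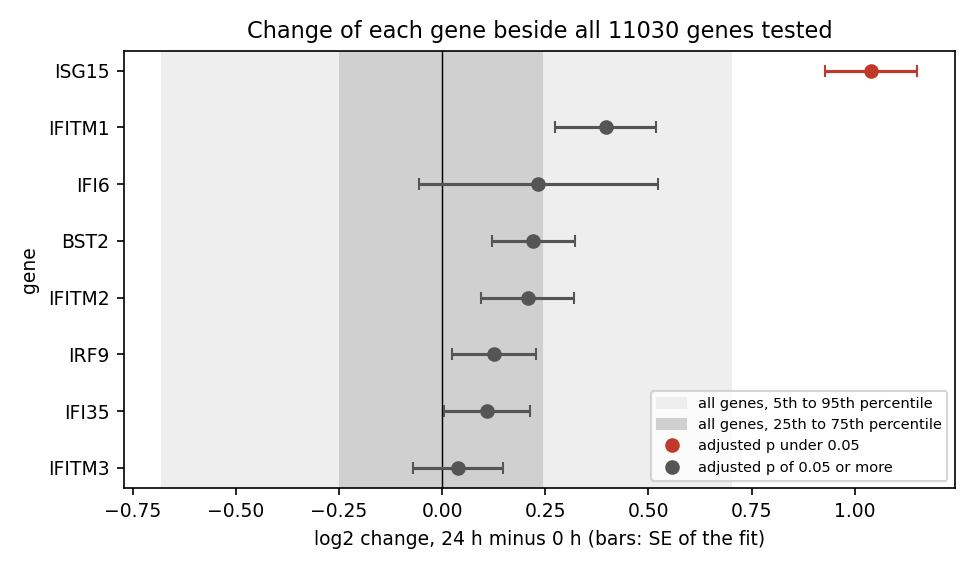
Log2 change, 24 h minus 0 h (horizontal axis), of the 8 tested genes with the SE of the fit as bars, over bands that hold the central part of all 11030 genes tested. ISG15 lies beyond the 95th percentile of all genes, at 0.70, and IFITM1 alone of the other 7 has a mean change above 0.25.

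Attachment of ISG15 to its targets runs through the activating enzyme UBA7, the conjugating enzyme UBE2L6 and ligases such as HERC5, and USP18 removes it. UBA7, HERC5 and TRIM25 were not analysed here. Of the 3 remaining enzymes 0 passed in limma, with 1 higher and 1 lower at an unadjusted p under 0.05. UBE2L6 stood at 0.21 ± 0.12, and a second probe of the gene at 0.14. ARIH1, a ligase reported to act on ISG15, stood at 0.32 ± 0.11. USP18 was detected on both 0 h arrays and on neither 24 h array. Its fitted change was -0.32 ± 0.11 (adjusted p = 0.141, limma), and scaled to the 75th percentile it was 0.01, so it has no settled direction. Both of its groups lay near the lowest detected signal and no fold is given.

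Relatives and partners of the 9 genes were taken next. IFI27L1 and IFI27L2, the genes on either side of IFI27 on chromosome 14, stood at 0.51 ± 0.11 (adjusted p = 0.0689, limma) and 0.61 ± 0.15 (adjusted p = 0.0848, limma). IFI27L1 measured 10.76 and 10.75 at 24 h, against 10.19 and 10.30 at 0 h. IFI27L2 measured 9.64 and 9.97 at 24 h, against 9.15 and 9.24 at 0 h. Both were called under 3 alternatives. A second probe of IFI27L1 showed a change of 0.06 and a second probe of IFI27L2 one of 0.36, so the probes of IFI27L1 disagree in size. NMI, the partner of IFI35, stood at -0.20 ± 0.13, and IFITM5, a relative known from bone, was not detected on any array.

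No interferon was measured above background on 2 arrays. The 14 interferon genes looked at, which included IFNB1, IFNG, 6 IFNA genes and 3 IFNL genes, were named by 19 probes. Of these, 17 were detected on 0 arrays and 2 on 1 array. The exceptions were 1 of the 3 probes of IFNE on 0 h replicate 1 (detection p 0.0325) and 1 of the 2 probes of IFNL1 on 24 h replicate 1 (detection p 0.0468). The probe of IFNB1, the first interferon made in many cells, had a detection p of 0.932 and 0.688 at 24 h, against 0.968 and 0.995 at 0 h. Transcripts below the detection limit would not be seen at these signals.

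The receptors and transducers were measured for the most part, and 0 passed in limma. Of 4 receptor genes, 3 lay above 0 and 1 below, each at an unadjusted p under 0.05, as did 15% of all genes tested in the higher direction and 15.3% in the lower. IFNAR1, a chain of the type I receptor, stood at 0.45 ± 0.14. Its signals lay near background, and without background correction its change was 0.14. IFNAR2, the other chain, was added after its value was seen and stood at 0.42 ± 0.10 (adjusted p = 0.08, limma). IL10RB, a chain of the receptor for lambda interferons, stood at 0.48 ± 0.10 with the same change on its second probe. Its partner IFNLR1 stood at -0.48 ± 0.11. Of 8 kinases and IRF transcription factors, TYK2, a kinase bound to IFNAR1, stood at 0.38 ± 0.12, IRF2 at 0.32 ± 0.23 and IRF4 at -0.26 ± 0.15, and 1 of the 8 had an unadjusted p under 0.05. IRF2 was detected on 1 of the 2 arrays at 0 h and IRF4 on 1 of the 2 at 24 h. With scaling to the 75th percentile IRF4 stood at 0.01. IFNGR1 and IFNGR2 were not analysed here, and the probe of JAK2 was not detected on any array.

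Of 7 negative regulators 0 passed in limma, with 3 higher and 1 lower at an unadjusted p under 0.05. SOCS1, an inhibitor of JAK kinases that interferon itself induces, stood at 0.72 ± 0.17 (adjusted p = 0.0812, limma). The phosphatase PTPN6 stood at 0.49 ± 0.11, and its second probe was detected on 2 of the 4 arrays. PIAS1, a SUMO ligase, stood at 0.40 ± 0.15. Among 10 sensors of foreign nucleic acid and their adaptors 0 passed in limma, with 2 lower and 0 higher at an unadjusted p under 0.05. TBK1, the kinase that activates IRF3, stood at -0.50 ± 0.10 (adjusted p = 0.0673, limma) and was called lower under 4 of 13 alternatives. DHX58, a helicase of the RIG-I family, stood at 0.45 ± 0.18, and the adaptor MYD88 at -0.33 ± 0.12. CGAS, TLR7 and TLR9 were not detected on any array.

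Other genes that interferon induces did not share one direction. Of 47 such genes 38 were named on the array and 20 were tested; 11 lay above 0 and 9 below, with a median of 0.12. None of the 20 was called by limma, with 2 higher and 1 lower at an unadjusted p under 0.05. TRIM5, which restricts retroviral capsids, came closest, at 0.78 ± 0.13 (adjusted p = 0.0536, limma). TRIM5 measured 8.88 on average at 24 h and 8.10 at 0 h, and its other 2 probes showed changes of 0.73 and 0.37. HELZ2, a helicase, stood at 0.66 ± 0.15 and SP110, a nuclear body protein, at -0.56 ± 0.13, with -0.35 and -0.70 on its other probes.

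Some textbook targets, chosen here after their values were seen, stood beside these. MX1, a GTPase against influenza virus, stood at -0.31 ± 0.14, IFIT1, which binds foreign RNA caps, at 0.16 ± 0.17, OAS1, which activates RNase L, at -0.22 ± 0.13, and the kinase EIF2AK2 at -0.23 ± 0.12. Limma's adjusted p was 0.229 to 0.584 for the 4. They do not stand for the list, in which 11 of the 20 tested genes lay above 0 and 9 below. Of the 18 genes named but not tested, 14 were detected on 0 arrays, among them RSAD2, IFIT2, IFI44, OAS2 and CXCL11, and 4 on 1 array. Across all pathway lists without the 9 genes, 55 genes were tested and 0 passed in limma, with a median of 0.16; 12 (of 55) were higher and 6 lower at an unadjusted p under 0.05, against 15% higher, 15.3% lower and 30.3% in either direction over all genes tested. When only genes detected on all 4 arrays were tested, 11 of 46 pathway genes were called, beside 1370 of all 9619 genes. With the trend and robust prior, in which the expected spread varies with the signal, 15 of 55 were called, beside 2522 of all 11030 genes.

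**Figure D3:**
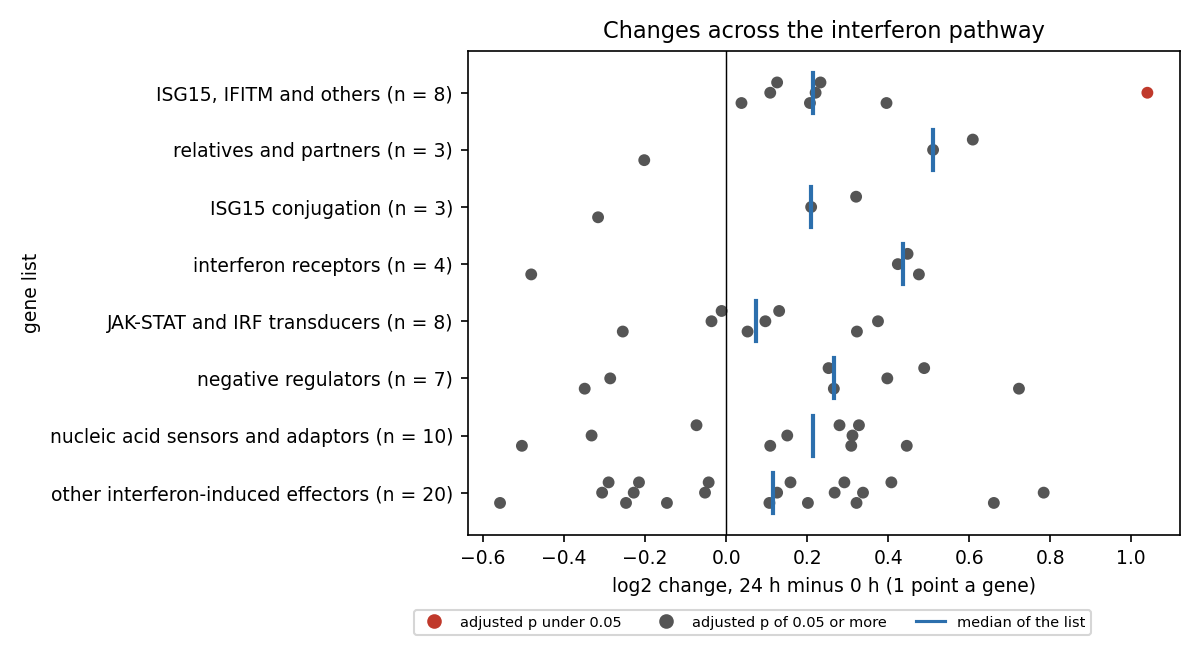
Log2 change, 24 h minus 0 h (horizontal axis), of each tested gene in the interferon pathway lists, 1 point a gene, with a blue line at the median of each list. ISG15 at 1.04 is the single point that passed; the 20 other interferon-induced genes spread from -0.56 to 0.78.

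The promoter element was set against the changes as well. Of the tested genes whose window held GAAANNGAAACT, 21 were not among the 9 genes, and 11 of these lay above 0 with a median of 0.08. None of the 21 was called by limma, with 4 higher and 4 lower at an unadjusted p under 0.05. Of the 8884 tested genes that had a window, 4327 lay above 0 with a median of -0.01, 109 were called higher and 79 lower, and 1287 were higher and 1372 lower at such a p. Among the tested genes of the 9, the longer form occurs once in the windows of ISG15 (change 1.04), IFITM1 (0.40) and BST2 (0.22), at 2 places in IFITM3 (0.04) and at 3 in IFI6 (0.23).

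The 2 genes beside ISG15 on chromosome 1 were looked at after their values were seen. HES4, a transcriptional repressor of the Hairy family and the neighbour upstream, measured 8.85 and 8.99 at 24 h, against 8.10 and 7.97 at 0 h. HES4 rose, with a log2 change of 0.89 ± 0.12 (adjusted p = 0.0496, limma), close to the threshold of 0.05. Without a detection filter, or with every probe tested on its own, limma called 0 of all genes. AGRN, the basement membrane protein agrin and the neighbour downstream, measured 9.70 and 9.92 at 24 h, against 9.44 and 9.27 at 0 h. Its change of 0.45 ± 0.14 did not pass (adjusted p = 0.112, limma).

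The 3 genes closest to ISG15 in pattern were RAB13, a small GTPase of vesicle traffic, NMRK1, a kinase of nicotinamide riboside, and RHBDF1, a catalytically inactive rhomboid protein. The measure was the Euclidean distance between log2 signals centred on each gene's mean, over the 4 arrays, and came to 0.045, 0.055 and 0.059. RAB13 measured 10.31 and 10.47 at 24 h, against 9.34 and 9.33 at 0 h. Their changes were 1.05, 0.99 and 0.99. With 4 arrays the measure says little beyond a like change between the groups. The nearest of the other 7 genes, IFITM1, came at rank 1280.

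Markers of the cells in the dish were read beside these results. Each list's signal was summed over its tested genes. Of 12 pluripotency markers 10 were tested and 0 was called by limma, with 0 higher and 2 lower at an unadjusted p under 0.05; their summed signal was 53180 and 51900 at 24 h, against 61060 and 60200 at 0 h, with LIN28A and PODXL the brightest. Among the 10 tested, 8 lay below 0 and 2 above, with a median of -0.16. Over all genes tested 49.3% lay above 0. The 2 above 0, named after their values were seen, were POU5F1 at 0.22 ± 0.13 and NANOG at 0.31 ± 0.13. The largest fitted change, also named after it was seen, was that of DNMT3B, at -0.72 ± 0.11 (adjusted p = 0.051, limma). Of 14 markers of fibroblasts and mesenchyme 9 were tested, and all 9 lay above 0. ACTA2, S100A4, COL1A1, TAGLN and VIM rose, by 0.86 to 1.504 on the log2 scale. Their adjusted p was 0.0447 to 0.0498 in limma, close to the threshold of 0.05. By this count 5 of 9 were called higher, against 1.35% of all genes tested. Limma called 0 of all genes without a detection filter or with every probe tested on its own. The summed signal of the 9 was 22090 and 21720 at 24 h, against 12830 and 12980 at 0 h. COL3A1 and LUM were detected on 0 arrays and DCN, POSTN and FAP on 1 at most. The part of these markers in the rise of ISG15 was not tested. In bulk samples fewer cells of a type and less RNA per cell cannot be told apart.

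Leukocytes, which make and answer interferon, were looked for by 14 markers, of which 13 were named and 5 tested. PTPRC, CD3E, CD3D, SPI1, TYROBP and FCER1G were detected on 0 arrays, and LYZ and MS4A1 on 1 at most. The 5 tested were AIF1, CD68, CD74 and LCP1, detected on all 4 arrays, and CD14, detected on 3. The summed signal of the 5 was 2210 and 2169 at 24 h, against 1634 and 1779 at 0 h, 0 of them passed in limma, and 1 was higher at an unadjusted p under 0.05. That gene was LCP1, an actin bundling protein, at 0.61 ± 0.14 (adjusted p = 0.0777), and CD74 stood at 0.11 ± 0.14. The largest fitted change of the 5, named after its value was seen, went the other way: CD14 stood at -0.82 ± 0.31 and did not pass (adjusted p = 0.168, limma), and 1 of the 24 h arrays did not detect it. Of 8 endothelial markers 3 were tested, and PECAM1 and CDH5 were detected on 0 arrays. Of 6 markers each, 3 of neurectoderm, 2 of endoderm and 1 of mesoderm were tested. None of these 9 genes passed in limma, with 3 higher and 0 lower at an unadjusted p under 0.05.

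**Figure D4:**
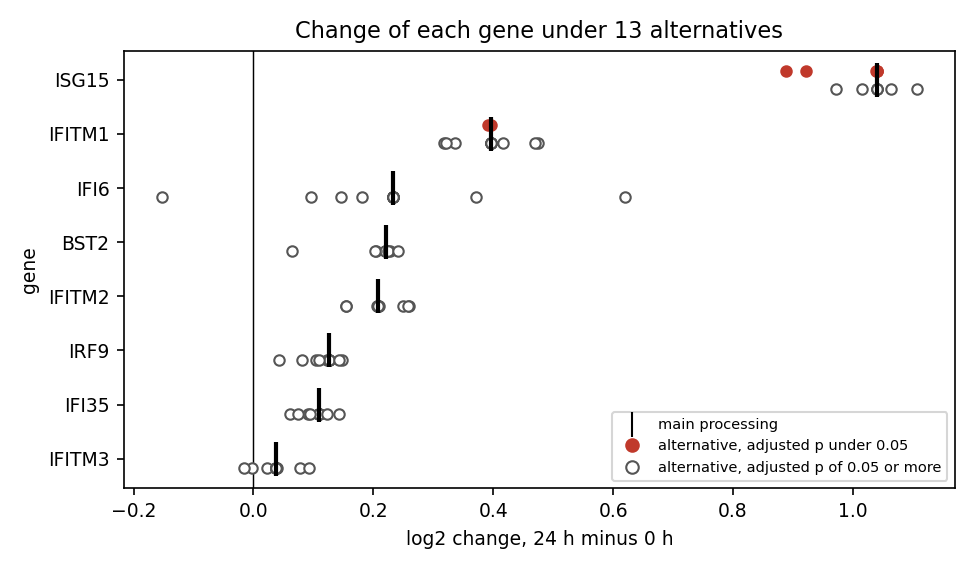
Log2 change, 24 h minus 0 h (horizontal axis), of the 8 tested genes with the main processing (black bar) and under 13 alternatives (points), red and above the line where adjusted p was under 0.05. ISG15 stayed between 0.89 and 1.11, IFITM1 between 0.32 and 0.47, and IFI6 and IFITM3 crossed 0.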

How the data were processed

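Per the file headers, the deposited table gives the linear mean intensity of each probe's beads before any normalization, with a detection p-value beside it. A second deposited table has the authors' log2 values for 34466 probes; the submitters' processing notes name limma, and its version and steps are not given in the sources used here. Against neqc of the same signals its columns correlated at 0.99998 (medians 5.35 to 5.36), so it was taken as log2 without centring. The intensities went through neqc of limma 3.58.1 (background correction from detection p, offset 16, quantile normalization; R 4.3.3). Between 19705 and 20443 probes per array were detected (detection p under 0.05), and 2 arrays per group limit the precision. Kept probes were detected on at least 2 of 4 arrays (20361 probes). The brightest of the 14235 with 1 symbol (platform annotation) stood for its gene. That left 11030 genes for lmFit and eBayes, two-sided, adjusted by Benjamini-Hochberg. In the annotation 26358 probes have 1 symbol, 3 have several and 20856 have none; symbols were updated through RefSeq (26325 identifiers found). The fit was run on simulated data with known changes, to check the estimated size of those changes. The share of false calls was not a condition of that check.

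The 9 genes, the lists and the tests were chosen with earlier results of these data known. Genes named beyond the 9 were those called and the 3 of largest change in each pathway list, the 3 nearest to ISG15, and called and bright markers, except where the text says otherwise. The names of the 4 arrays share 1 number and differ in the last letter. This was read as 1 slide with the groups at different positions, which the labels do not state. Group and position could then not be told apart. An exact permutation test of 2 against 2 arrays cannot go below 0.333 and was not used.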

Additional observations from a re-analysis of the deposited data

How the results depend on the processing

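For the 9 genes and their pathway 13 alternatives were run. Limma called 251 genes in the main setting, 2317 without background correction, 722 with scaling to the 75th percentile, 388 in the authors' log2 table, 1370 with detection on all 4 arrays and 2522 with the trend and robust prior. It called 0 genes without a detection filter (3456 at an unadjusted p under 0.05), 0 with every probe on its own (4103), 0 with the replicate number as a block (3828) and 0 in each fit with 1 array left out (1831 to 3341). Of the 9 genes, 1 was called in the main setting, 2 (ISG15 and IFITM1) without background correction and with the trend and robust prior, 0 without a detection filter, with every probe on its own and with the replicate block, and 0 in each fit with 1 array left out. ISG15 was above 0 under all 13, with adjusted p of 4.44e-05 to 0.238, and 0.07 with the block. Of the other pathway genes 0 were called in the main setting, 12 without background correction, 1 (TBK1) with scaling to the 75th percentile, 11 with detection on all 4 arrays and 15 with the trend and robust prior. Signs turned for IFI6 (-0.153 to 0.62 with 1 array left out, lowest without 24 h replicate 2), IFITM3 (-0.016 to 0.092 with 1 array left out, below 0 without 0 h replicate 2 or 24 h replicate 2), and, with scaling to the 75th percentile, USP18 (0.01) and IRF4 (0.012). Testing fewer or more genes moves the adjustment itself; the cause of the other moves was not tested. Replicate numbers need not pair the samples: deviations of same-numbered arrays correlated at 0.154 across genes, from 2 pairs. Signals near background limit IFI27, USP18, IFNAR1, IRF2, IRF4 and the interferon genes.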
